A study of Solanum lycopersicum with 84 samples.

Results

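The tomato genes described here are 5 genes annotated for the transport of metal and mineral cations, out of 34075 genes in the count table. They were taken by identifier. The study names *Solyc01g095510.3* for manganese (annotated as mitochondrial carrier MTM1), *Solyc05g012220.3* for magnesium (MRS2-B), *Solyc07g006370.1* as a cation/calcium exchanger, and *Solyc07g043200.2* and *Solyc07g043230.3* for zinc. The study named them for lower transcript levels in nitrate-supplied roots, so their root comparison describes what they were chosen for. The shoot libraries had no part in that choice. Comparisons between the organs use the root libraries and so are not free of it.

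The 12 mRNA libraries came from hydroponically grown *Solanum lycopersicum* of cultivar M82, a processing tomato. All plants were 22 days old when they went without nitrogen for 4 days. They then received, for 6 h, either fresh medium with nitrate (+N) or fresh medium in which chloride replaced the nitrate (−N). There were 4 groups with 3 replicates each, namely +N shoots, −N shoots, +N roots and −N roots, and each replicate was a pool of plants. The methods call the replicates biologically independent. Whether the pools were grown in separate cultures was not given in the sources used here, and p-values measure the spread between these pools. All groups were nitrogen-starved first, and −N therefore stands for continued starvation rather than for a nitrogen-fed baseline.

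The libraries held 17472760 to 21901432 counted reads. The nitrate reductase gene *Solyc11g013810.3*, a textbook nitrate-induced gene, separated every +N from every −N library. All 6 shoot marker genes (chlorophyll-binding and other photosynthetic proteins) were higher in every shoot library, with summed levels of 2920 to 7170 CPM (read counts scaled to library size) in shoots against 5.06 to 9.53 CPM in roots. Of 3 root markers only the NRAMP1 match *Solyc11g018530.2* was higher in every root library. The SKOR potassium channel gene *Solyc03g097940.3*, taken as a root marker, went against that label with 14.5 to 16.6 CPM in shoots and 8.19 to 10.8 CPM in roots, and the Casparian strip gene *Solyc02g067190.4* overlapped between the organs. RNA integrity was generally higher in root than in shoot samples according to the methods, and its part in the organ differences was not tested.

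Plants take up and distribute mineral cations through several protein families, each with its own range of metals. ZIP proteins carry zinc, iron and related metals into the cytosol. MRS2 proteins are magnesium channels related to bacterial CorA. Cation/calcium exchangers move calcium or other cations across membranes in exchange for sodium or potassium. MTM1 is a mitochondrial carrier that in yeast is needed for an active manganese superoxide dismutase in mitochondria. Several of these families are known for transcript changes when the supply of their metal changes. Here the supply of nitrate was changed, and chloride took its place in −N. An effect of chloride cannot be told apart from one of nitrate.

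In shoots, all 4 of the genes that could be tested fell after 6 h of nitrate, at an edgeR adjusted p below 0.05, as did 33.5% of all tested genes. Of these 4, 3 also passed the cutoffs for a differentially expressed gene (DEG), an adjusted p below 0.015 and more than 2-fold. Lower-expressed DEGs made up 7.62% of the 20689 genes tested in shoots. In roots all 5 genes were lower-expressed DEGs, a count that follows from their choice, against 6.38% of the 21049 genes tested there. Wherever one of these genes had reads, no +N library reached the lowest −N library, a separation shared by 35.3% of the genes tested in shoots and 32% of those in roots. Of the 19309 genes tested in both organs, 1.95% were lower-expressed DEGs in both. Because these are whole organs, fewer cells that express a gene and less RNA per cell cannot be told apart.

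**Figure D1:**
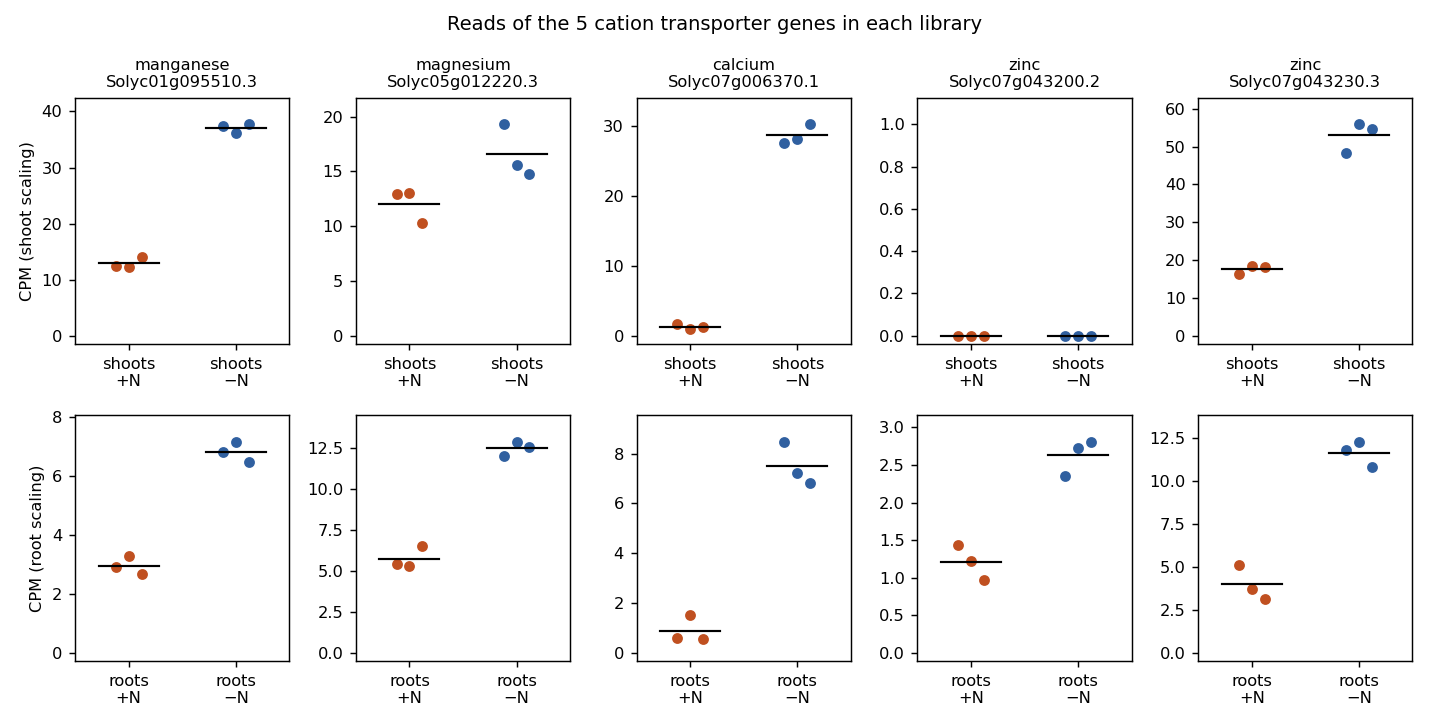
Reads of each of the 5 genes in each library, in CPM scaled within an organ, for shoots (upper row) and roots (lower row). Points are the 3 replicates of +N (left in each panel) and −N (right), and lines are their means. Wherever a gene had reads, all +N points lie below all −N points, and *Solyc07g043200.2* had no read in any shoot library.

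The cation/calcium exchanger gene *Solyc07g006370.1* showed the largest change of the 5 genes in both organs. In shoots it had 29, 18 and 20 reads in the +N libraries, against 620, 676 and 731 reads in the −N libraries. This came to 1.28 ± 0.383 CPM in +N shoots and 28.6 ± 1.38 CPM in −N shoots (SD, n = 3 each). The groups lay far apart, with the lowest −N library 16.3 times the highest +N library. The log2 change was −4.49 ± 0.15 (SE, edgeR adjusted p = 3.48e-15), or 22.4-fold lower in +N, and only 0.0435% of the genes tested in shoots had a lower value.

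In roots *Solyc07g006370.1* had 11, 26 and 9 reads in the +N libraries, against 159, 156 and 133 reads in the −N libraries. Replicate 2 of the +N roots was the highest of its group and gave that group a wide spread, with 0.887 ± 0.538 CPM in +N roots and 7.5 ± 0.877 CPM in −N roots (SD, n = 3 each). Even so, the lowest −N root library was 4.51 times the highest +N root library. This was a log2 change of −3.07 ± 0.28 (SE, edgeR adjusted p = 1.7e-07), or 8.39-fold lower in +N.

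The fall of this exchanger gene was larger in shoots. The difference of the log2 changes, shoots minus roots, was −1.51 (95% confidence interval −2.30 to −0.72, edgeR adjusted p = 0.00215). Such differences between organs were common, since 48.4% of the 22483 genes tested over all 12 libraries passed at an adjusted p below 0.05. This call rested on replicate 2 of the +N roots. Without that library the difference was −0.90 (edgeR adjusted p = 0.0771, against a range of 1.21e-04 to 0.0771 over all settings tried) and the root change was −3.68.

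The zinc transporter gene *Solyc07g043230.3*, which matches ZIP5 of other plants, fell in both organs. Its shoot levels were 16.2, 18.4 and 18.1 CPM in +N, against 48.4, 55.9 and 54.8 CPM in −N. The replicates of each group lay close together and the groups were separated 2.63-fold at their nearest libraries. The log2 change in shoots was −1.59 ± 0.081 (SE, edgeR adjusted p = 1.77e-12), or 3.01-fold lower in +N.

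In roots *Solyc07g043230.3* had 5.13, 3.71 and 3.16 CPM in +N, against 11.8, 12.3 and 10.8 CPM in −N. The +N root libraries varied more than the −N root libraries, with coefficients of variation of 25.4% and 6.21%. This was a log2 change in roots of −1.53 ± 0.16 (SE, edgeR adjusted p = 1.04e-06). Its change did not pass a test for a difference between the organs, at −0.15 for shoots minus roots (95% confidence interval −0.52 to 0.21, edgeR adjusted p = 0.512). Without replicate 1 of the +N roots this small difference turned to 0.073.

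The second zinc gene, *Solyc07g043200.2*, carries the same ZIP5 match and lies beside it in gene numbering, with only *Solyc07g043205.1*, which had no reads, between the pair in the table. It had 26, 21 and 16 reads in +N roots, against 44, 59 and 55 reads in −N roots. The log2 change was −1.11 ± 0.26 (SE, edgeR adjusted p = 0.00188), and the groups did not overlap. Without replicate 3 of the +N roots it was −0.98 (edgeR adjusted p = 0.0117), short of 2-fold. Leaving out each root library in turn gave adjusted p-values of 0.00281 to 0.0117.

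No read of *Solyc07g043200.2* was counted in any of the 6 shoot libraries. Taking the 3 reads that a count of 0 allows in each shoot group, its level was at least 20.4-fold lower in +N shoots than in +N roots and at least 55.7-fold lower in −N shoots than in −N roots. In shoots the pair gave 4687 reads, all from *Solyc07g043230.3*, which allows a share of up to 0.064% for *Solyc07g043200.2*. In roots *Solyc07g043200.2* took 23.4 ± 1.44% of the pair's reads under +N, against 18.5 ± 2.01% under −N (SD, n = 3 each). These shares did not overlap, but the two-sided exact permutation p of 0.1 is the smallest that 3 against 3 libraries allow. How reads that fit both genes were counted was not given in the sources used here, and their separate root values are uncertain to that extent. Bounds of this kind cover counting error only.

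The manganese gene *Solyc01g095510.3* fell to 12.5, 12.2 and 14 CPM in +N shoots, against 37.4, 36.2 and 37.7 CPM in −N shoots. The −N shoot libraries agreed within a few percent, and the nearest libraries of the groups were 2.59-fold apart. This was a log2 change of −1.53 ± 0.084 (SE, edgeR adjusted p = 5.26e-12), or 2.89-fold lower in +N.

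In roots *Solyc01g095510.3* had 2.92, 3.30 and 2.67 CPM in +N, against 6.83, 7.17 and 6.49 CPM in −N. The groups did not overlap, and the log2 fold change was −1.20 (SE 0.17, edgeR adjusted p = 1.64e-05). The fall was larger in shoots by 0.42 on the log2 scale (shoots minus roots −0.42, 95% confidence interval −0.76 to −0.08, edgeR adjusted p = 0.0365). This difference was close to the threshold. It was lost, at adjusted p-values of 0.0565 to 0.138, when replicate 1 or 2 of the +N shoots, replicate 1 or 3 of the −N shoots, replicate 1 or 2 of the +N roots or replicate 1 or 3 of the −N roots was left out. Over all settings tried its adjusted p ranged from 0.0228 to 0.147.

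The magnesium gene *Solyc05g012220.3* was the only 1 of the 4 genes tested in both organs whose fall was smaller in shoots. Its shoot levels were 12.9, 13.0 and 10.3 CPM in +N, against 19.3, 15.6 and 14.8 CPM in −N. The groups did not overlap, but their nearest libraries were only 1.14-fold apart. The log2 change in shoots was −0.45 ± 0.12 (SE, edgeR adjusted p = 0.00307), below the 2-fold cutoff, and 25.3% of the tested genes had a lower value. With scaling by total counts alone it was −0.75.

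In roots *Solyc05g012220.3* had 5.46, 5.33 and 6.50 CPM in +N, against 12.0, 12.9 and 12.6 CPM in −N. This was a log2 change of −1.12 ± 0.13 (SE, edgeR adjusted p = 1.92e-06). The difference between the organs, shoots minus roots, was 0.57 (95% confidence interval 0.19 to 0.95, edgeR adjusted p = 0.0133). It passed the test without any 1 library, at adjusted p-values of 0.00282 to 0.0397. The root change in this difference is the one for which the gene was chosen, so the test is not independent of that choice.

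**Figure D2:**
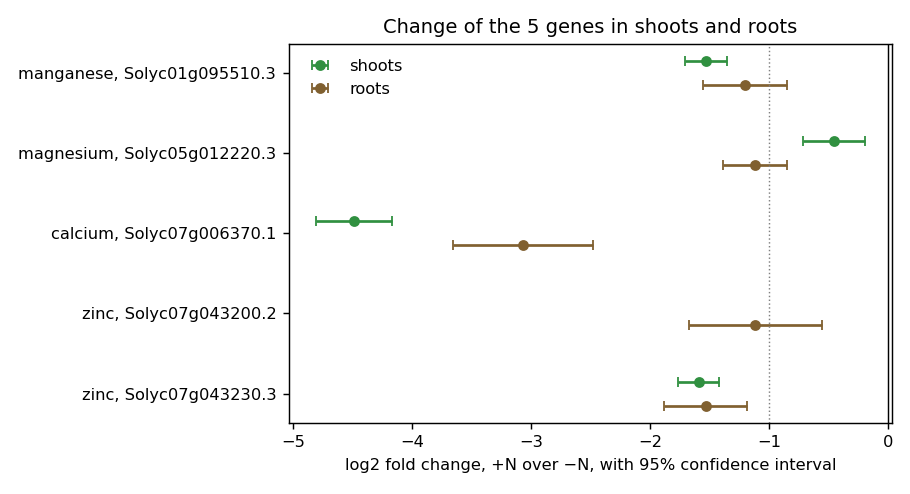
Log2 fold change of +N over −N for the 5 genes in shoots (green, upper) and roots (brown, lower), with 95% confidence intervals from the edgeR fits. The dotted line marks a 2-fold fall. *Solyc07g006370.1* lies farthest left in both organs, *Solyc05g012220.3* is the only gene whose shoot interval lies right of the line, and *Solyc07g043200.2* has no shoot value.

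Whether the falls were larger than 2-fold, rather than different from 0, was a stricter question. It was asked with edgeR at an adjusted p below 0.015. The share of all genes passing this test was not determined, so the counts have no background to be set against. The root count is also not independent of the choice of the genes for their root falls. In shoots 3 of the 4 tested genes passed that test. In roots only *Solyc07g006370.1* and *Solyc07g043230.3* passed it, while *Solyc01g095510.3*, *Solyc05g012220.3* and *Solyc07g043200.2* had adjusted p-values of 0.431, 0.658 and 1.

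The organs were next compared under the same treatment, with levels scaled over all 12 libraries. Under −N, all 4 genes with shoot reads were higher in shoots than in roots at an edgeR adjusted p below 0.05, as were 38.6% of the genes tested. The count leaves out *Solyc07g043200.2*, at least 55.7-fold lower in −N shoots than in −N roots. Genes without shoot reads were not left out of the 38.6%. *Solyc01g095510.3* had 39.8 ± 0.94 CPM in −N shoots and 6.57 ± 0.33 CPM in −N roots (SD, n = 3 each). *Solyc07g043230.3* had 56.9 ± 4.38 CPM in −N shoots and 11.2 ± 0.701 CPM in −N roots (SD, n = 3 each). These 2 genes were 6.05-fold and 5.08-fold higher in −N shoots. *Solyc07g006370.1* was 4.26-fold higher there and *Solyc05g012220.3* 1.48-fold, the smallest of the 4 differences.

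Under +N, 3 of the 4 genes were higher in shoots, as were 40.6% of the genes tested. Again *Solyc07g043200.2*, at least 20.4-fold lower in +N shoots than in +N roots, is left out of this count. *Solyc01g095510.3* was 4.52-fold, *Solyc07g043230.3* 4.57-fold and *Solyc05g012220.3* 2.20-fold higher in +N shoots than in +N roots. The exchanger gene *Solyc07g006370.1* was low in both, with 1.29 ± 0.385 CPM in +N shoots and 0.853 ± 0.517 CPM in +N roots (SD, n = 3 each). Its libraries overlapped and the difference of 0.58 on the log2 scale did not pass the test (95% confidence interval −0.11 to 1.28, edgeR adjusted p = 0.112). Without replicate 2 of the +N roots it did pass, at 1.19 (edgeR adjusted p = 0.0036, against a range of 0.0036 to 0.419 over all settings tried).

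For each gene with shoot reads, the 4 groups could thus be put in order of their means on the 12-library scale. *Solyc07g043200.2*, without reads in either shoot group, is left out. The step between −N roots and +N shoots was not tested. For *Solyc01g095510.3* and *Solyc07g043230.3* the order ran from +N roots, the lowest, through −N roots and +N shoots to −N shoots. For *Solyc05g012220.3* it was the same, but +N shoots with 12.1 ± 1.52 CPM and −N roots with 12.0 ± 0.477 CPM (SD, n = 3 each) did not differ beyond their spread. For *Solyc07g006370.1* both +N groups lay lowest with overlapping libraries, and −N shoots lay above −N roots.

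Over the 12 libraries, the log2 levels of *Solyc01g095510.3* and *Solyc07g043230.3* had a Pearson correlation of 0.989. *Solyc05g012220.3* had correlations of 0.893 and 0.914 with them, and *Solyc07g006370.1* had 0.764 and 0.792. *Solyc07g043200.2*, without shoot reads, had negative correlations of −0.229 to −0.787 with the other 4. These values are descriptive, since the 12 libraries share 4 groups.

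Other genes of the same families did not all move with the 5 genes. These were taken from the study's lists of changed genes, and family members outside those lists were not looked for. The other MTM1 gene in those lists, *Solyc03g007430.3*, rose in both organs. It had 17.5, 20 and 20.6 CPM in +N shoots, against 15.4, 14.9 and 14.1 CPM in −N shoots, a log2 change of 0.39 ± 0.098 (SE, edgeR adjusted p = 0.00176). In roots it had 22.4, 23.2 and 19.0 CPM in +N, against 17.9, 16.0 and 13.4 CPM in −N, a log2 change of 0.45 ± 0.11 (SE, edgeR adjusted p = 0.00296). Its groups did not overlap in either organ, and it moved opposite to *Solyc01g095510.3*. With scaling by total counts alone its shoot value was 0.091 and did not pass (edgeR adjusted p = 0.415), and its root value was 0.28 (edgeR adjusted p = 0.042). Accordingly *Solyc01g095510.3* gave 40.0 ± 1.9% of the reads of this pair in +N shoots and 71.5 ± 1.1% in −N shoots (SD, n = 3 each). In roots its share was 12.1 ± 0.51% in +N and 30.4 ± 2.5% in −N (SD, n = 3 each). These are shares of reads, with gene length not taken into account, and were not tested.

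The other MRS2 gene in the study's lists, the MRS2-I gene *Solyc09g065920.3*, was nearly restricted to shoots. It had 1620 reads in the +N shoot libraries and 1869 reads in the −N shoot libraries, but only 21 reads in the +N root libraries and 18 in the −N root libraries. In shoots its log2 fold change was 0.22 (SE 0.088, edgeR adjusted p = 0.0352), and with scaling by total counts alone it was −0.08. That call was also lost with DESeq2 (adjusted p = 0.0706) and without replicate 1 of the −N shoots, replicate 2 of the +N shoots or replicate 3 of the +N shoots (edgeR adjusted p = 0.127 to 0.157). *Solyc05g012220.3* took 28.3 ± 4.0% of the reads of both genes in +N shoots and 38.6 ± 5.2% in −N shoots (SD, n = 3 each). In roots it took 93.6 ± 2.5% in +N and 97.6 ± 1.2% in −N (SD, n = 3 each), so the reads of this pair in roots were almost all from the gene that fell.

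**Figure D3:**
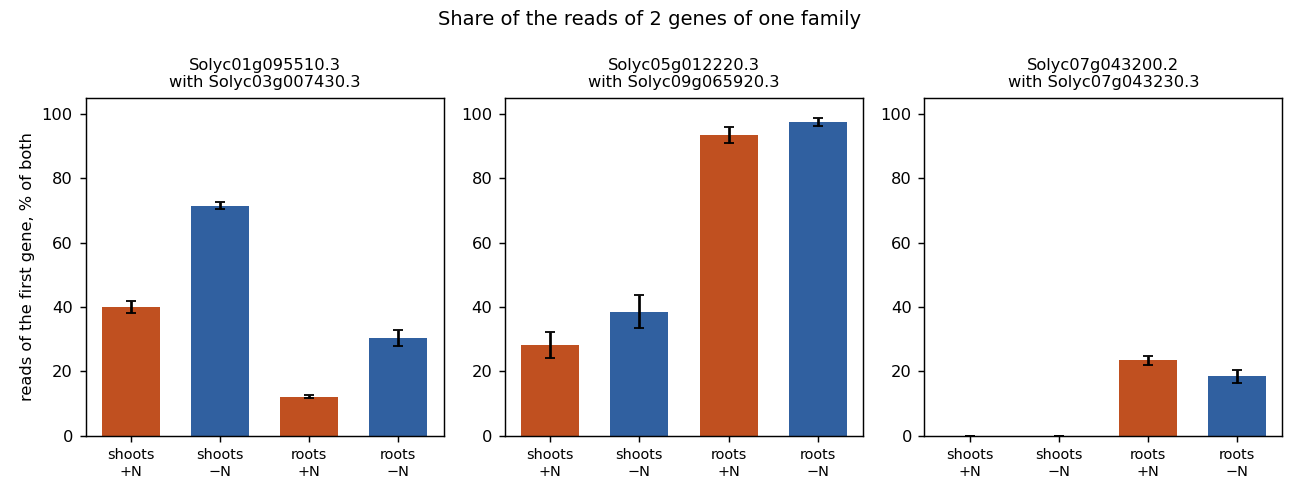
Share of the reads of a pair of genes of one family that came from the first gene, in percent, for MTM1 (left), MRS2 (middle) and the ZIP5-matching zinc genes (right). Bars are means and error bars the SD of 3 libraries, for +N and −N shoots and +N and −N roots. The MTM1 share is lowest in +N roots (12.1%) and highest in −N shoots (71.5%), and the zinc share is 0 in shoots.

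Of 3 other zinc transporter genes in the study's lists, 2 match ZIP1 and fell in +N roots. *Solyc02g081600.4* had 5.27 ± 0.298 CPM in +N roots and 18.8 ± 1.99 CPM in −N roots (SD, n = 3 each), a log2 change of −1.83 ± 0.12 (SE, edgeR adjusted p = 5.11e-09). Its log2 change in shoots was −0.71, also a fall (SE 0.087, edgeR adjusted p = 5.88e-07). *Solyc02g032100.4* fell in roots by 0.46 on the log2 scale (SE 0.12, edgeR adjusted p = 0.0034), and its shoot value of −0.25 did not pass (adjusted p = 0.121). It did pass without replicate 2 of the +N shoots, at −0.41 (edgeR adjusted p = 0.0263), and with total counts alone, at −0.55 (edgeR adjusted p = 0.00181).

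The remaining zinc transporter gene, the ZIP family match *Solyc01g087530.3*, rose in roots. It had 141, 128 and 136 CPM in +N roots, against 60.3, 60.5 and 61.6 CPM in −N roots, a log2 change of 1.15 ± 0.053 (SE, edgeR adjusted p = 1.05e-10). In shoots its log2 fold change was −0.08 (edgeR adjusted p = 0.407), and −0.37 with total counts alone (edgeR adjusted p = 3.22e-04). This gene and *Solyc02g081600.4* came from a list made on the root libraries, so their root calls are not independent evidence of direction.

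The iron-regulated transporter genes, also of the ZIP family, rose in roots and had no read in shoots. IRT2, *Solyc02g069190.4*, had 77, 78 and 69 reads in +N roots, against 7, 0 and 2 reads in −N roots, a log2 change of 4.78 ± 0.46 (SE, edgeR adjusted p = 3.39e-07). IRT1, *Solyc02g069200.3*, had 104, 75 and 51 reads in +N roots, against 19, 29 and 19 reads in −N roots, a log2 change of 1.98 ± 0.28 (SE, edgeR adjusted p = 1.98e-05). In Arabidopsis IRT1 is the main iron importer of the root surface. Both moved opposite to the ZIP5-matching genes in the same root libraries.

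The EF-hand gene *Solyc03g006260.4*, which matches sodium/calcium exchangers, also fell in both organs. It had 3.82 ± 0.161 CPM in +N shoots and 9.46 ± 0.22 CPM in −N shoots (SD, n = 3 each), a log2 change of −1.31 ± 0.14 (SE, edgeR adjusted p = 1.26e-07). In roots it had 1.59 ± 0.227 CPM under +N, against 7.38 ± 0.751 CPM under −N (SD, n = 3 each), a log2 change of −2.20 ± 0.19 (SE, edgeR adjusted p = 1.14e-07). Its fall was smaller in shoots, at 0.80 for shoots minus roots (SE 0.23, edgeR adjusted p = 0.00699), whereas *Solyc07g006370.1* had the larger fall in shoots.

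Among 24 other cation transporter genes that the study lists for nitrogen-responsive histone marks, directions were mixed. The paper reports that genes with changes in several of these marks overlapped significantly with DEGs. These 24 genes are therefore not a neutral sample in transcript change. In shoots 18 could be tested, of which 6 rose, 6 fell and 6 did not pass at an edgeR adjusted p below 0.05. Of these, 2 were lower-expressed DEGs and none was a higher-expressed DEG. Of all genes tested in shoots, 34.8% rose and 33.5% fell, with 13.4% higher-expressed and 7.62% lower-expressed DEGs. The median log2 fold change of the list was 0.11, against −0.01 for all genes tested. In roots 20 could be tested, of which 8 rose, 9 fell and 3 did not pass, with 4 higher-expressed and 6 lower-expressed DEGs. Of all genes tested in roots, 29.2% rose and 28.8% fell, with 6.23% higher-expressed and 6.38% lower-expressed DEGs. The list's median was −0.20, against −0.01 for all genes tested. With scaling by total counts alone, the median of all genes moved by −0.30 in shoots and −0.17 in roots, and 2 of the genes rose in shoots.

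Potassium and sodium transporters were the largest class in that list and had its 2 largest falls in roots. Directions were mixed in this class too. Of its 8 genes, 2 rose and 4 fell in roots, and 1 rose and 2 fell in shoots. The HKT1 match *Solyc07g014680.4*, of a family of sodium and potassium transporters, fell in both organs, with log2 changes of −1.60 in shoots (SE 0.17, edgeR adjusted p = 8.27e-08) and −2.34 in roots (SE 0.096, edgeR adjusted p = 3.14e-11). The CHX17 match *Solyc02g071070.3*, a cation/proton antiporter, had 24.9 ± 2.28 CPM in +N roots and 252 ± 15.3 CPM in −N roots (SD, n = 3 each), a log2 change of −3.34 ± 0.071 (SE, edgeR adjusted p = 2.27e-14).

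A further 16 cation transporter genes come from the study's lists of root transcripts that changed. In roots 12 fell and 4 rose, which their choice on these libraries fixed. In shoots, which that choice did not use, 11 could be tested, of which 2 rose, 6 fell and 3 did not pass, beside 34.8% of all genes tested in shoots that rose and 33.5% that fell. Without replicate 2 of the −N shoots or replicate 3 of the +N shoots, and with scaling by total counts alone, 1 rose. Their median log2 fold change in shoots was −0.82, against −0.01 for all genes tested. HAK5, *Solyc12g005670.2*, the high-affinity potassium importer of roots, had 48.9 ± 6.1 CPM in +N roots and 408 ± 41.6 CPM in −N roots (SD, n = 3 each), a log2 change of −3.06 ± 0.088 (SE, edgeR adjusted p = 5.92e-13), and no read in shoots. Metal tolerance protein 3, *Solyc12g100300.2*, fell by 3.16 on the log2 scale in roots (SE 0.26, edgeR adjusted p = 6.7e-08).

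In the same list the SKOR potassium channel gene *Solyc11g011500.2*, which in Arabidopsis loads potassium into the xylem, rose to 334 ± 14.2 CPM in +N roots, against 60.5 ± 12.1 CPM in −N roots (SD, n = 3 each), a log2 change of 2.46 ± 0.098 (SE, edgeR adjusted p = 2.07e-11). The KEA2 match *Solyc01g094290.3*, a potassium efflux antiporter, rose by 1.10 on the log2 scale in shoots (SE 0.051, edgeR adjusted p = 3.94e-13) and by 1.77 in roots (SE 0.051, edgeR adjusted p = 5.97e-13). Falls in shoots were led by the CHX17 match *Solyc08g081820.4*, with a value of −3.67 (SE 0.47, edgeR adjusted p = 1.14e-06), and by the calcium-transporting ATPase *Solyc02g090560.3*, at −1.52 (SE 0.38, edgeR adjusted p = 0.00167). *Solyc08g081820.4* had 1, 1 and 11 reads in +N shoots, against 79, 71 and 78 reads in −N shoots, and its value was −5.73 without replicate 3 of the +N shoots.

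**Figure D4:**
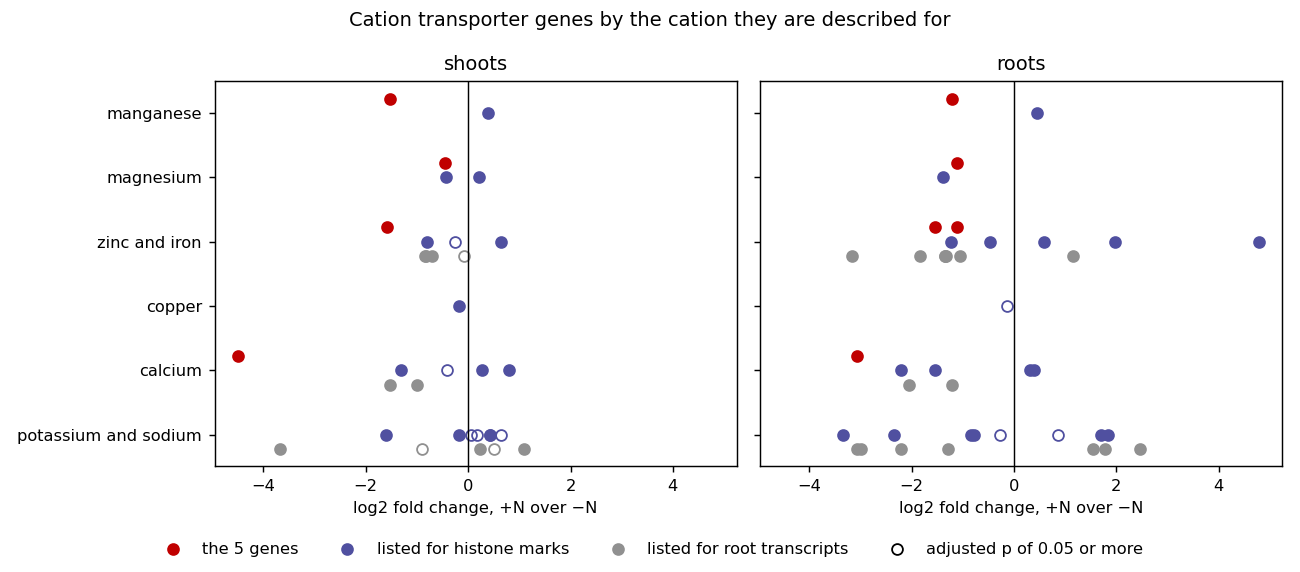
Log2 fold change of +N over −N for the 5 genes (red) and the other cation transporter genes listed for histone marks (blue) or for root transcripts (grey), by the cation they are described for, in shoots (left) and roots (right). Filled points passed at an edgeR adjusted p below 0.05 and open points did not. The 5 genes all lie left of 0, while zinc and iron genes in roots extend up to 4.78.

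The genes whose levels followed each of the 5 most closely were found by Pearson correlation of log2 levels over the 12 libraries, among 20702 other genes with a mean of at least 1 CPM. Since the libraries share 4 groups, these correlations are descriptive too. For *Solyc01g095510.3* the closest was *Solyc01g088090.3* (r = 0.997), annotated as pheophytinase, an enzyme of chlorophyll breakdown. Its log2 change was −1.93 in shoots and −1.59 in roots. Next came *Solyc07g008210.4*, a tetratricopeptide repeat protein, and *Solyc01g008780.3*, both at r = 0.996.

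For *Solyc07g043230.3* the closest was *Solyc10g074790.2* (r = 0.996), an auxin efflux carrier family gene, followed by *Solyc04g080260.4* (r = 0.995) and *Solyc06g082595.1* (r = 0.994). For *Solyc05g012220.3*, genes among the closest were *Solyc09g098030.4* (r = 0.980) and *Solyc04g010250.3* (r = 0.978).

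For *Solyc07g006370.1* the closest was *Solyc01g087250.3* (r = 0.991), which encodes carotenoid cleavage dioxygenase 1A and had log2 changes of −1.21 in shoots and −0.88 in roots. *Solyc06g073780.4* (r = 0.983) and the alpha/beta-hydrolase gene *Solyc03g123390.4* (r = 0.982) followed. For *Solyc07g043200.2*, which had reads in roots alone, the closest were the oxygenase gene *Solyc06g066830.4*, the extensin gene *Solyc09g098510.3* and *Solyc09g015245.1*, all at r = 0.998. Within organs their r was lower, at 0.9602, 0.9475 and 0.9431. Unlike *Solyc07g043200.2*, the extensin gene had 1090 CPM in +N shoots and 944 CPM in −N shoots. It rose there (log2 change 0.2042, edgeR adjusted p = 0.00317).

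The DEGs next to the 5 genes in gene numbering went in both directions. Neighbours that were not DEGs are not named here, though some of them also fell. Of the 6 rows around *Solyc01g095510.3*, 4 were DEGs in shoots, and all 4 rose. Higher-expressed DEGs made up 13.4% of all genes tested in shoots. These were *Solyc01g095480.4* at a log2 fold change of 1.68, *Solyc01g095500.3* at 1.23, *Solyc01g095515.1* at 2.41 and *Solyc01g095530.2* at 2.07, of which the last was also a DEG in roots at 1.60. Around *Solyc05g012220.3*, *Solyc05g012190.3* rose in shoots by 2.00 and *Solyc05g012250.3* rose by 1.17 in shoots and 1.06 in roots, while *Solyc05g012210.4* fell by 1.75 and *Solyc05g012230.4* fell by 1.37 in shoots.

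Beside *Solyc07g006370.1*, *Solyc07g006350.3* fell by 1.03 in shoots on the log2 scale. It fell in roots as well, short of the DEG cutoffs (log2 change −0.453, edgeR adjusted p = 2.12e-05). Next to the zinc pair, the glycosyltransferase gene *Solyc07g043170.4* rose by 2.42 in shoots and by 5.15 in roots, *Solyc07g043160.1* rose by 1.36 in roots, and *Solyc07g043250.1* fell by 1.12 in shoots. Whether the counting used strand was not given in the sources used here, and reads of overlapping genes on opposite strands could not be told apart.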

How the data were processed

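The authors deposited raw counts, whole reads per gene, for 12 mRNA libraries. Per the paper's methods, reads were trimmed with Cutadapt, mapped with TopHat2 to build 4.0 of the tomato genome and counted with HTSeq. The strand setting, versions and handling of multi-mapping reads were not given in the sources used here. The 72 ChIP and input libraries were not analysed here.

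Counts were tested with edgeR 4.0.16 (quasi-likelihood, TMM scaling, filterByExpr with a minimum count of 10), each organ apart. A fit of all 12 libraries, taken as independent, gave differences between organs. Shoot and root pools may have come from the same plants, which this fit does not model. P-values were adjusted over all genes tested (Benjamini-Hochberg). DEGs had an adjusted p below 0.015 and more than 2-fold change, and "rose" or "fell" means an adjusted p below 0.05. Standard errors are the log2 fold change divided by the root of F. DESeq2 1.42.0, other scalings and filters, thinning, stricter tests and leaving out libraries were alternatives. The fits were tested on simulated data.

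The 5 genes, the gene lists and the tests were chosen with earlier results of these data known. Named were the 5 genes, the 3 genes most like each in pattern, listed genes of the same families, the 2 largest rises and falls among DEGs per organ and list, and neighbouring DEGs; 1 gene that this rule names is not reported here. Gene descriptions come from the study's annotation.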

Additional observations from a re-analysis of the deposited data

Results flagged for a closer look

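The change after nitrate differed between the organs for 3 of the 4 genes tested in both, by the test of the difference itself (shoot change minus root change, log2). The values were −1.51 for the cation/calcium exchanger gene *Solyc07g006370.1* (edgeR adjusted p = 0.00215), −0.42 for the manganese gene *Solyc01g095510.3* (edgeR adjusted p = 0.0365) and 0.57 for the magnesium gene *Solyc05g012220.3* (edgeR adjusted p = 0.0133). A difference of this kind was called for 48.4% of all genes tested. Each difference includes the root change for which the genes were chosen, so these tests are not independent of that choice. The difference of *Solyc07g006370.1* missed the threshold without replicate 2 of the +N roots (−0.90, edgeR adjusted p = 0.0771), and that of *Solyc01g095510.3* was lost in 11 of the 19 alternatives tried, so that leaving out 1 library at a time left 0 to 2 genes with a larger fall in shoots.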

How the results depend on the processing

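Of 372 recomputed values of the 5 genes, 354 kept their direction and their side of the threshold. In a test against 2-fold (glmTreat, adjusted p below 0.015), 2 of the 5 genes passed in roots. *Solyc01g095510.3* (−1.20), *Solyc05g012220.3* (−1.12) and *Solyc07g043200.2* (−1.11) did not. The share of all genes passing was not determined, and the root falls are those for which the genes were chosen. The difference between organs of *Solyc01g095510.3* missed the threshold with DESeq2 (−0.34), DESeq2 size factors (−0.34) and no filter beyond 1 count (−0.42), which left 1 gene with a larger fall in shoots in place of 2. The causes were not tested.

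Leaving out 1 library at a time, the root change of *Solyc07g043200.2* ran from −1.26 to −0.98. The differences between organs ran from −0.49 to −0.34 for *Solyc01g095510.3*, from −1.76 to −0.90 for *Solyc07g006370.1* and from −0.29 to 0.073 for *Solyc07g043230.3*. The number of genes with a larger fall in shoots ran from 0 to 2. The difference of *Solyc07g006370.1* between +N shoots and +N roots ran from 0.33 to 1.19. Of the genes listed for root transcripts, 1 to 2 rose in shoots.

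With total counts alone, 2 of the genes listed for histone marks rose in shoots in place of 6, 1 of those listed for root transcripts in place of 2, and the MRS2-I gene *Solyc09g065920.3* turned to −0.079. That scaling lowered the median of all genes by 0.30 in shoots and 0.17 in roots on the log2 scale, and raised shares of lower DEGs, with 37.6% of shoot DEGs higher-expressed in place of 63.7% and 34.4% of root DEGs in place of 49.4%. Libraries thinned to the smallest also gave 1 in place of 2 for root-transcript genes that rose in shoots.

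Same-numbered +N and −N libraries of an organ showed no shared deviation, with correlations from −0.0324 to −0.00347. Whether their pools were grown or harvested together cannot be told from this. Whether shoots and roots of the same treatment and number were paired was not checked. A replicate block changed no call of the 5 genes, with 5 lower-expressed DEGs in roots and 3 in shoots, and the exchanger gene *Solyc07g006370.1* at −3.09 in roots and −4.49 in shoots. Over all genes it gave 2616 DEGs in roots and 4327 in shoots, against 2654 and 4348 without it. Low counts limit *Solyc07g043200.2* and the +N values of *Solyc07g006370.1* most.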
